A study of Mus musculus with 22 samples.

Results

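Hepatocytes take drugs, bile acids, hormones and nutrients out of the blood through solute carrier (SLC) proteins, and 8 genes for such carriers were followed here in nuclear RNA of mouse liver. They were Slco1a1, Slco1a4, Slco1b2, Slco2b1, Slc22a7, Slc22a26, Slc13a5 and Slc15a2. Members were chosen by symbol, and the 8 rows were found among the 24197 genes of the authors' table. The livers came from CD-1 mice aged 7 weeks. TCPOBOP was given at 3 mg/kg to mice of both sexes, controls had the carrier alone (corn oil with 1% DMSO), and livers were taken 3 h or 27 h later. Male mice only received PCN (50 mg/kg) or the same vehicle for 3 h, in a separate set of libraries with vehicle pools of its own. Each library was poly(A)-selected RNA from nuclei of several mice pooled, 4 mice a pool at 3 h and 3 mice a pool at 27 h. The TCPOBOP set had 2 pools in each of 8 groups and the PCN set had 3 pools in each of 2 groups, 22 libraries in all.

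The Slco genes encode organic anion transporting polypeptides (OATPs), which carry bile acids, steroid conjugates and many drugs across the sinusoidal membrane of the hepatocyte. Slc22a7 encodes the organic anion transporter OAT2, Slc13a5 the sodium-coupled citrate transporter of liver, and Slc15a2 the peptide transporter PEPT2, which is known mainly from kidney. TCPOBOP is an agonist of the nuclear receptor CAR in mice and PCN is an agonist of PXR in rodents. Both receptors are known to switch on drug-metabolising enzymes and some transporters in liver, and several OATP and SLC22 genes differ in level between male and female rodents.

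Levels are fragments per kilobase of transcript and per unit of mapped depth (FPKM). The authors' table gives group means only. Because a mean FPKM is built from whole fragments, the fragments of each pool and the gene lengths could be solved from it exactly, and pool values below come from that step. The pools carry no number after this step, so within a group they are given from the most deeply sequenced to the least. Pools of the TCPOBOP set had a depth of 25398327 to 46684341 mapped fragments. Those of the PCN set had 19048304 to 31886282. Levels are not comparable between the sets without a shift, since the median gene was lower by 0.69 (log2) in the male 3 h vehicle of the PCN set than in that of the TCPOBOP set. Known targets followed the treatments, and the Cyp2b10 ratio in the authors' deposited table ran from 31.1 after PCN to 138 in male livers at 27 h of TCPOBOP. Sex marker genes matched the labelled sex in 10 of 10 groups. Summed levels of 6 hepatocyte markers were 1269 to 2281 FPKM, against 21.9 to 85.8 for 5 Kupffer cell, 50.2 to 83.9 for 5 endothelial, 24.3 to 50.4 for 5 stellate and 4.07 to 8.84 for 5 cholangiocyte markers. No marker was at 0 in every group. By the authors' adjusted p, 3 of the 6 hepatocyte markers, 1 of 5 Kupffer and 1 of 5 endothelial markers were called after PCN. At 27 h of TCPOBOP in males 1 Kupffer, 2 endothelial and 1 stellate marker were called, and in females at 3 h 1 Kupffer and 1 endothelial marker. None of these lists had a call in males at 3 h or females at 27 h, where the summed Kupffer markers were at 85.8 FPKM in female vehicle and 61.6 FPKM after TCPOBOP. The part of these markers in the results on the transporters was not tested. In bulk nuclei, fewer cells of a type and less RNA per cell cannot be told apart.

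The 3 Slco1 members lie in 1 stretch of chromosome 6 in mm9, the build of the authors' table. Slco1b2 spans chr6:141578039-141635156, Slco1a4 chr6:141753961-141804692 and Slco1a1 chr6:141855802-141895483. The other members are apart, with Slco2b1 at chr7:106806314-106859850, Slc22a7 at chr17:46569134-46575426, Slc22a26 at chr19:7856473-7877157, Slc13a5 at chr11:72055496-72080106 and Slc15a2 at chr16:36750250-36785048. The promoter windows of the 3 neighbours, called in 5, 1 and 0 of the 5 comparisons for Slco1a4, Slco1a1 and Slco1b2, are shown as RefSeq tables them in build GRCm38.p6, from 250 bases before to 50 bases after the gene start. Capitals mark the 6-base nuclear receptor half-sites AGGTCA and AGTTCA on either strand.
Slco1a4, chr6:141856171-141856470, minus strand: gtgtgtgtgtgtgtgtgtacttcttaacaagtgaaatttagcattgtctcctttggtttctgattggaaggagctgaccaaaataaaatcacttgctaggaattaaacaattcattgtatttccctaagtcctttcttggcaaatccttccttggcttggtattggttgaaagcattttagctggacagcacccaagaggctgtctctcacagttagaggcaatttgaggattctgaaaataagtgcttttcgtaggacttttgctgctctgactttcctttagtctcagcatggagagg
Slco1a1, chr6:141946913-141947212, minus strand: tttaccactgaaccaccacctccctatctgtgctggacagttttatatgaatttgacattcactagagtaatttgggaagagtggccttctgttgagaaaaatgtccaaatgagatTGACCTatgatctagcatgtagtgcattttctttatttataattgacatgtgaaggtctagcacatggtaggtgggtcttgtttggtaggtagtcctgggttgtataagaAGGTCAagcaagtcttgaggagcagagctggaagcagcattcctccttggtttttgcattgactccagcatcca
Slco1b2, chr6:141629268-141629567, plus strand: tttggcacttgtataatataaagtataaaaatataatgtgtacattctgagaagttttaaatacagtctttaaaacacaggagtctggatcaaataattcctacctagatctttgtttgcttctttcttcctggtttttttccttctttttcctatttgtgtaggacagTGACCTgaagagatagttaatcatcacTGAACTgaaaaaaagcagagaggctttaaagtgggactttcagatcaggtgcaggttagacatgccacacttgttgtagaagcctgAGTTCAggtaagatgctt
The Slco1a4 window held neither half-site, the Slco1a1 window held 2 copies of AGGTCA, and the Slco1b2 window held 1 AGGTCA and 2 AGTTCA. Of 32851 mouse promoter windows of the same length, 27.7% held at least 1 of the half-sites, 16.3% AGGTCA and 14% AGTTCA. No window of a member held 2 half-sites as a direct repeat spaced by 3 or 4 bases or as a repeat of opposite strands spaced by 6 bases, arrangements found in 0.0122%, 0.0274% and 0.0335% of all windows. RefSeq windows were at hand for 7 of the 8 members, 10 windows in all, and 3 of the 10 held a half-site. A match of letters is a description only, and CAR and PXR are also known to act through distant elements that these windows leave out.

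Slco1a4, the bile acid and drug carrier OATP1A4, rose in all 5 comparisons. In male livers at 3 h the vehicle pools were at 4.74 and 3.69 FPKM and the TCPOBOP pools at 8.23 and 7.06 FPKM. Female livers at 3 h had 13.5 and 8.09 FPKM in vehicle pools and 21.7 and 19.5 FPKM in TCPOBOP pools. At 27 h male vehicle pools were at 5.97 and 9.62 FPKM and TCPOBOP pools at 20.05 and 17.8 FPKM. All treated pools lay above all vehicle pools of their comparison. In female livers at 27 h the vehicle pools had 46.5 and 31.9 FPKM and the TCPOBOP pools 72.5 and 58.6 FPKM, the highest levels of the gene in the series. After PCN the pools were at 14.04, 11.5 and 16.6 FPKM, against 1.61, 2.27 and 1.33 FPKM in their vehicle pools. Every PCN pool stood above every vehicle pool of its set.

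The ratios for Slco1a4 in the authors' deposited table were 1.80 in males and 1.99 in females at 3 h of TCPOBOP, with adjusted p = 0.000645 and 0.00102. At 27 h they were 2.52 in males and 1.74 in females in the authors' deposited table, with adjusted p = 9.02e-09 and 0.0261. After PCN the ratio in the authors' deposited table was 9.09, with adjusted p = 7.23e-58. A fit of limma to the pool values of all genes at 1 FPKM or more gave the same directions. Its log2 differences were 0.83 ± 0.15 (SE) in males and 1.03 ± 0.23 in females at 3 h, 1.36 ± 0.22 and 0.79 ± 0.23 at 27 h, and 3.09 ± 0.18 after PCN. The limma adjusted p was 0.0118 in males at 27 h and 2.89e-06 after PCN, and missed 0.05 in males at 3 h (0.0687), females at 3 h (0.102) and females at 27 h (0.0577). Leaving out 1 pool moved the limma adjusted p across 0.05 in males at both times and in females at 27 h, and not in females at 3 h or after PCN. In males at 27 h the value was 0.106 or 0.0787 without either TCPOBOP pool. In males at 3 h it was 0.0423 without the deeper vehicle pool, and 0.0481 and 0.0056 without either TCPOBOP pool. In females at 27 h it was 0.00508 without the other TCPOBOP pool, the one at 58.6 FPKM.

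Part of the sequence of some members is shared with other genes, and how the authors' counting treated such reads is not given in the sources used here. Of 50-base windows of the reference transcript, 2.73% of those of Slco1a4 also occurred in other genes, mostly Slco1a5. For Slco1a1 the share was 2.26%, with 2.18% found in the member Slco1a4. For Slc22a26 it was 5.88%. The other 5 members shared none.

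**Figure D1:**
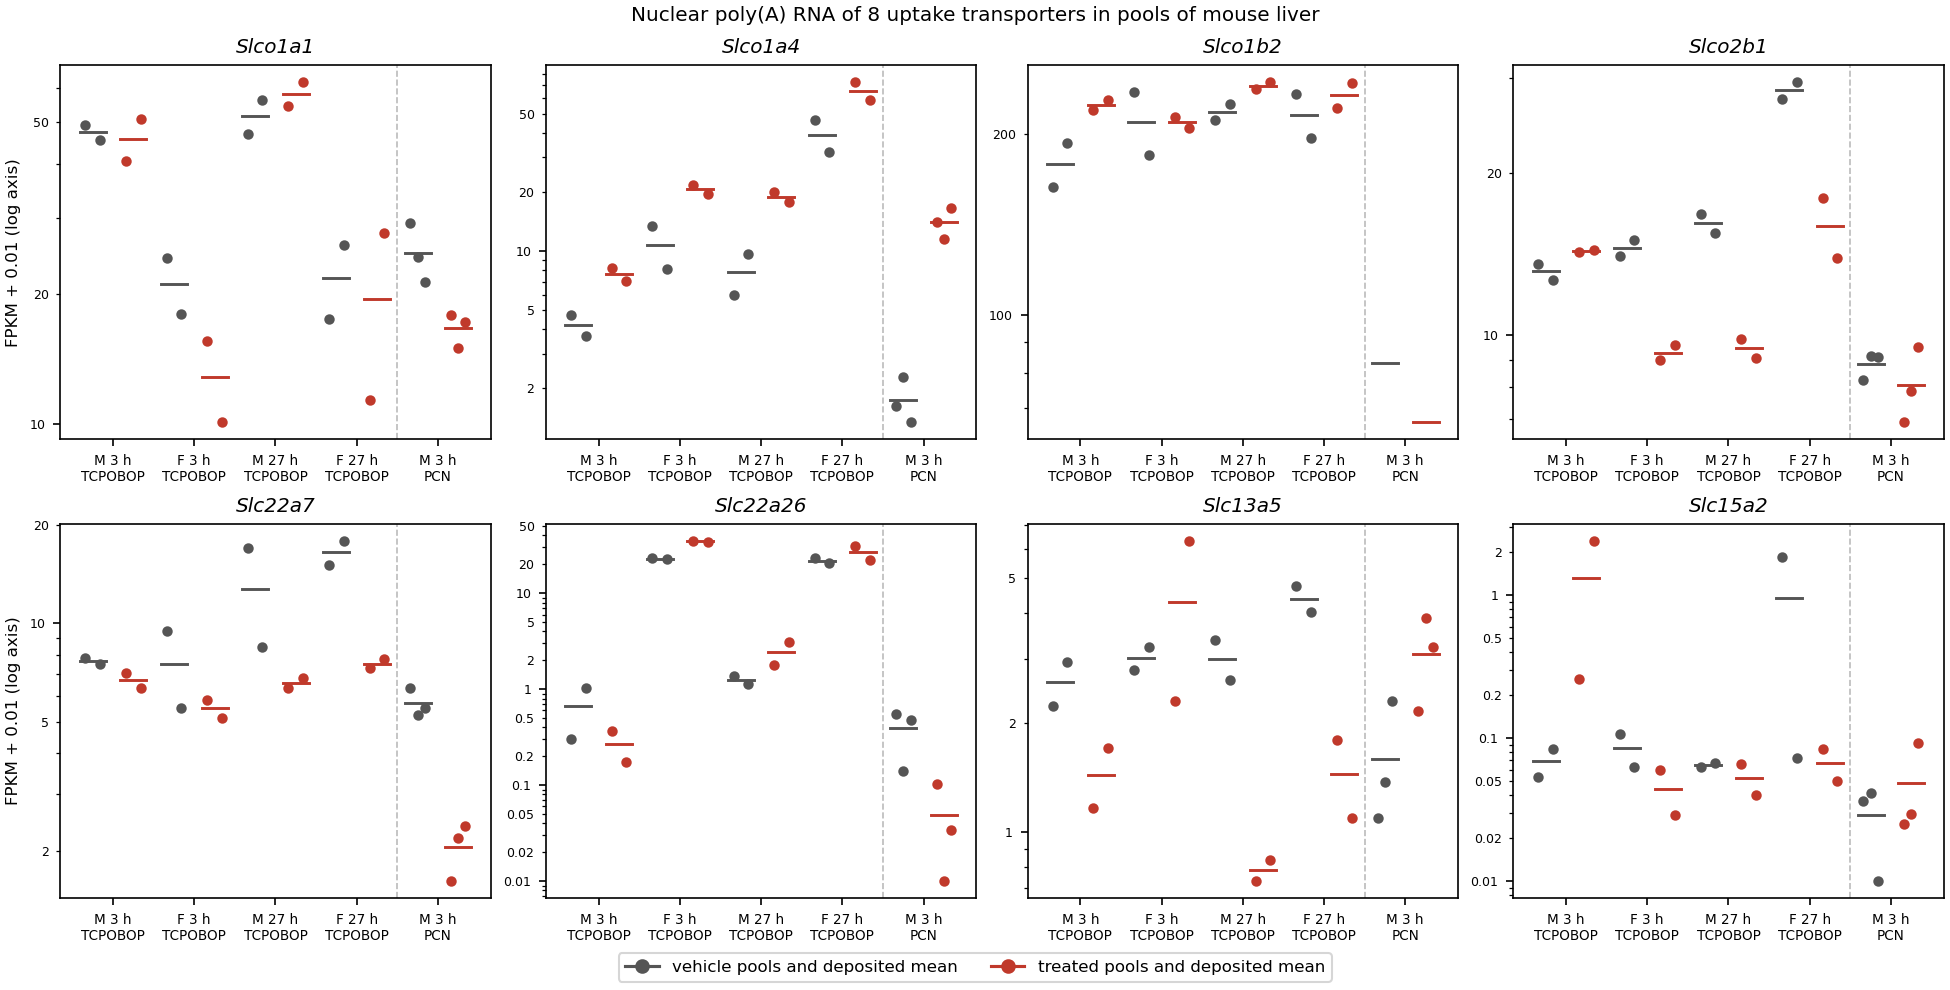
FPKM (plus 0.01, log axis) of the 8 transporters in each pool, with vehicle pools and deposited vehicle means in grey and treated pools and means in red. M is male and F is female, 2 pools a group for TCPOBOP and 3 for PCN (right of the dashed line), where Slco1b2 has means only. Treated pools of Slco1a4 sit above vehicle pools in every comparison, and Slc15a2 rises above 1 FPKM in single pools.

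Slco1b2, the carrier of bilirubin, bile acids and statins OATP1B2, had the highest level of the 8 and was called in none of the comparisons. Its 16 pools of the TCPOBOP set ran from 163 to 244 FPKM with a median of 220.0 FPKM. At 3 h in males the vehicle pools were at 163 and 193 FPKM and the TCPOBOP pools at 219 and 228 FPKM. The treated pools lay above the vehicle pools in males at both times and overlapped them in females. The ratio in the authors' deposited table was 1.24 in males at 3 h, 1.04 in females at 3 h, 1.15 in males at 27 h and 1.12 in females at 27 h. The limma log2 difference was 0.31 ± 0.16 in males at 3 h (limma adjusted p = 0.706). After PCN the authors' deposited table gave a mean of 66.2 FPKM against 82.9 FPKM in vehicle, a ratio of 0.8996 and an adjusted p of 0.68. Pool values of Slco1b2 in the PCN set had more than 1 solution and are not given.

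Slco1a1, the male-predominant OATP1A1, fell after PCN. The PCN pools were at 17.9, 14.98 and 17.2 FPKM and the vehicle pools at 29.2, 24.3 and 21.3 FPKM, without overlap. The ratio in the authors' deposited table was 0.755, a 1.32-fold fall, with adjusted p = 0.0395. The limma log2 difference was -0.44 ± 0.13 (limma adjusted p = 0.0292). That limma call was lost without the deepest vehicle pool (adjusted p = 0.118), the second vehicle pool (0.0683) or the second PCN pool (0.113). TCPOBOP gave no call for Slco1a1. In female livers at 3 h the TCPOBOP pools, at 15.6 and 10.1 FPKM, lay below the vehicle pools, at 24.2 and 17.9 FPKM. The ratio there was 0.636 in the authors' deposited table with adjusted p = 0.118, and limma gave -0.67 ± 0.23 (adjusted p = 0.228). In female livers at 27 h the TCPOBOP pools were far apart, at 11.3 and 27.7 FPKM, on either side of the vehicle pools at 17.5 and 25.9 FPKM. Without the pool at 27.7 FPKM limma gave -0.86 there with adjusted p = 0.00782, against -0.23 and 0.702 with all pools, and without the pool at 11.3 FPKM the difference turned to 0.40 (adjusted p = 0.264). Male pools overlapped at both times.

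Slco2b1, the widely expressed OATP2B1, fell after TCPOBOP in females at 3 h and in both sexes at 27 h. Female vehicle pools at 3 h were at 14.02 and 14.98 FPKM and TCPOBOP pools at 8.97 and 9.56 FPKM. Male vehicle pools at 27 h were at 16.8 and 15.4 FPKM and TCPOBOP pools at 9.82 and 9.07 FPKM. Female vehicle pools at 27 h were at 27.5 and 29.5 FPKM and TCPOBOP pools at 17.9 and 13.9 FPKM. The groups did not overlap in any of these comparisons. Ratios in the authors' deposited table were 0.667, 0.609 and 0.584, with adjusted p = 0.0145, 1.66e-05 and 0.00925. The limma log2 differences were -0.59 ± 0.10, -0.71 ± 0.09 and -0.81 ± 0.18, with limma adjusted p = 0.0553, 0.00669 and 0.0258. Leaving out either TCPOBOP pool in males at 27 h raised the limma adjusted p to 0.058 and 0.0706. In females at 27 h it rose to 0.077 and 0.155 without either vehicle pool and to 0.113 without the other TCPOBOP pool.

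In males at 3 h Slco2b1 stood at 14.3 and 14.4 FPKM after TCPOBOP and at 13.6 and 12.7 FPKM in vehicle, a ratio of 1.08 in the authors' deposited table with adjusted p = 1. After PCN its pools overlapped, with 6.88, 7.86 and 9.51 FPKM against 8.25, 9.13 and 9.10 FPKM, and the ratio in the authors' deposited table was 1.03. The male response moved from 3 h to 27 h by -0.82 ± 0.17 (log2), and the female response at 3 h differed from the male one by -0.68 ± 0.17. Neither difference passed in the fit over all genes, with limma adjusted p = 0.0795 and 0.292.

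Slc22a7, whose product OAT2 carries small organic anions and nucleotides, fell at 27 h of TCPOBOP and at 3 h of PCN. Female vehicle pools at 27 h were at 15.1 and 17.9 FPKM and TCPOBOP pools at 7.27 and 7.74 FPKM. Male vehicle pools at 27 h were at 17.02 and 8.45 FPKM and TCPOBOP pools at 6.30 and 6.78 FPKM. PCN pools were at 1.61, 2.18 and 2.37 FPKM against 6.34, 5.24 and 5.49 FPKM in vehicle. Treated pools were below vehicle pools in all 3 comparisons. Ratios in the authors' deposited table were 0.475 in females (adjusted p = 2.13e-05), 0.535 in males (0.00584) and 0.401 after PCN (1.69e-14). The limma log2 differences were -1.09 ± 0.15, -0.82 ± 0.29 and -1.31 ± 0.14, with limma adjusted p = 0.00528, 0.0967 and 0.000124.

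The male fall of Slc22a7 at 27 h turned on 1 vehicle pool. Without the deeper vehicle pool, at 17.02 FPKM, the limma log2 difference was -0.33 (adjusted p = 0.107), and without the other one it was -1.31 (adjusted p = 0.000563). The limma adjusted p in females at 27 h was 0.0542 without the vehicle pool at 17.9 FPKM. At 3 h of TCPOBOP the pools of Slc22a7 were at 7.02 and 6.33 FPKM in males, against 7.81 and 7.47 FPKM in vehicle. They were at 5.83 and 5.12 FPKM in females, against 9.47 and 5.50 FPKM in vehicle. The authors' deposited table called neither, with ratios of 0.867 and 0.763.

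Slc22a26 belongs to a mouse cluster of organic anion transporter genes on chromosome 19 and had its highest levels in female livers. Female vehicle pools at 3 h were at 23.01 and 22.9 FPKM and TCPOBOP pools at 34.9 and 34.5 FPKM. The ratio in the authors' deposited table was 1.58 with adjusted p = 0.0022, and limma gave 0.65 ± 0.10 (adjusted p = 0.0312). Leaving out any of the 4 pools kept the log2 difference at 0.64 to 0.67 and gave limma adjusted p values of 0.166 to 0.245. Male pools at 27 h were lower than every female pool, at 1.36 and 1.12 FPKM in vehicle and 1.79 and 3.06 FPKM after TCPOBOP. Their ratio in the authors' deposited table was 2.02 with adjusted p = 0.0037, and limma gave 0.92 ± 0.25 (adjusted p = 0.0506, or 0.0444 without the deeper vehicle pool).

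In females at 27 h Slc22a26 pools overlapped, at 31.0 and 22.3 FPKM after TCPOBOP and 23.1 and 20.5 FPKM in vehicle, and the ratio of 1.27 in the authors' deposited table was not called (adjusted p = 0.578). Male pools at 3 h of TCPOBOP were all near or under 1 FPKM, at 0.353 and 0.163 FPKM against 0.289 and 1.01 FPKM, and overlapped. After PCN the pools held 6, 0 and 1 fragments, or 0.0939, 0 and 0.0245 FPKM, against 30, 6 and 18 fragments, or 0.548, 0.131 and 0.472 FPKM, in vehicle. A pool with 0 fragments allows a level of up to 0.0618 FPKM, a limit of 3 fragments that covers counting error only. All PCN pools lay below all vehicle pools, and the ratio in the authors' deposited table was 0.136 with adjusted p = 0.000223. On the log2 scale that ratio is -2.88, and the quotient of the mean FPKM values with 0.1 added was -1.79, or -1.66 less the median of all genes. Both groups were under 1 FPKM, so this comparison was outside the limma fit.

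Slc13a5, the hepatic importer of citrate, fell in 3 of the 4 TCPOBOP comparisons and rose after PCN. Male vehicle pools at 3 h were at 2.21 and 2.93 FPKM and TCPOBOP pools at 1.15 and 1.69 FPKM. At 27 h male vehicle pools were at 3.36 and 2.60 FPKM and TCPOBOP pools at 0.722 and 0.829 FPKM. Female vehicle pools at 27 h were at 4.74 and 4.01 FPKM and TCPOBOP pools at 1.79 and 1.08 FPKM. No treated pool reached a vehicle pool in these 3 comparisons. Ratios in the authors' deposited table were 0.544, 0.270 and 0.343, with adjusted p = 0.016, 8.68e-19 and 1.17e-06. The limma log2 differences were -0.84 ± 0.21, -1.76 ± 0.15 and -1.55 ± 0.24, with limma adjusted p = 0.218, 0.00164 and 0.00702. In females at 27 h it was 0.0567 or 0.0632 without either vehicle pool, and in males at 3 h it was 0.00443 without the TCPOBOP pool at 1.69 FPKM.

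PCN pools of Slc13a5 were at 2.14, 3.87 and 3.21 FPKM and vehicle pools at 1.09, 1.36 and 2.28 FPKM. The lowest PCN pool lay below the highest vehicle pool, so the groups overlapped in FPKM. These levels are not centred. FPKM quotients of the PCN set lay 0.17 (log2) below the authors' ratios at the median gene, so this narrow overlap may depend on scale. The ratio in the authors' deposited table was 2.21 with adjusted p = 0.000153, and limma gave 1.07 ± 0.25 (adjusted p = 0.0102). That limma call held without each of the 6 pools in turn, with log2 differences of 0.86 to 1.35. The TCPOBOP and PCN livers of males at 3 h thus stood at ratios of 0.544 and 2.21 in the authors' deposited table, at different doses and in different library sets, and that difference was not tested.

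In female livers at 3 h of TCPOBOP Slc13a5 gave no call and its pools parted. One TCPOBOP pool was at 2.28 FPKM, with 2.78 and 3.22 FPKM in the vehicle pools, and the other at 6.31 FPKM, the highest value of the gene in the series. The ratio of 1.49 in the authors' deposited table (adjusted p = 0.887) changed direction with the pool left out. Without the pool at 6.31 FPKM the limma log2 difference was -0.34, and without the pool at 2.28 FPKM it was 1.13. The female response moved from 3 h to 27 h by -1.96 ± 0.52 (log2), with limma adjusted p = 0.0582.

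Slc15a2, the proton-coupled carrier of small peptides PEPT2, was near 0 in most pools and high in single ones. Of the 16 pools of the TCPOBOP set, 13 were below 0.1 FPKM. Male vehicle pools at 3 h had 6 and 9 fragments, or 0.0436 and 0.0738 FPKM, and TCPOBOP pools had 49 and 305 fragments, or 0.250 and 2.38 FPKM. Female vehicle pools at 27 h had 275 and 7 fragments, or 1.83 and 0.0620 FPKM, and TCPOBOP pools 13 and 5 fragments, or 0.0741 and 0.0401 FPKM. The authors' deposited table called the first pair raised, with a ratio of 21.98 and adjusted p = 4.7e-05, and the second pair lowered, with a ratio of 0.0632 and adjusted p = 0.00389.

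The size of both Slc15a2 ratios rested on single pools. In males at 3 h limma gave 2.54 ± 0.76 with all pools (adjusted p = 0.331) and 3.96 without the TCPOBOP pool at 0.250 FPKM (adjusted p = 5.07e-08). Without the TCPOBOP pool at 2.38 FPKM the gene was under 1 FPKM in both groups and left the fit, and the remaining treated pool was still above both vehicle pools. In females at 27 h the vehicle pool at 0.0620 FPKM lay between the TCPOBOP pools, so the groups overlapped. There the gene was under 1 FPKM in both group means, and limma gave -3.60 (adjusted p = 0.00695) only where that low vehicle pool was left out. The other 3 comparisons of Slc15a2 had no call in the authors' deposited table, at levels of 0 to 0.0969 FPKM. Among PCN vehicle pools 1 had 0 fragments, which allows a level of up to 0.0376 FPKM.

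**Figure D2:**
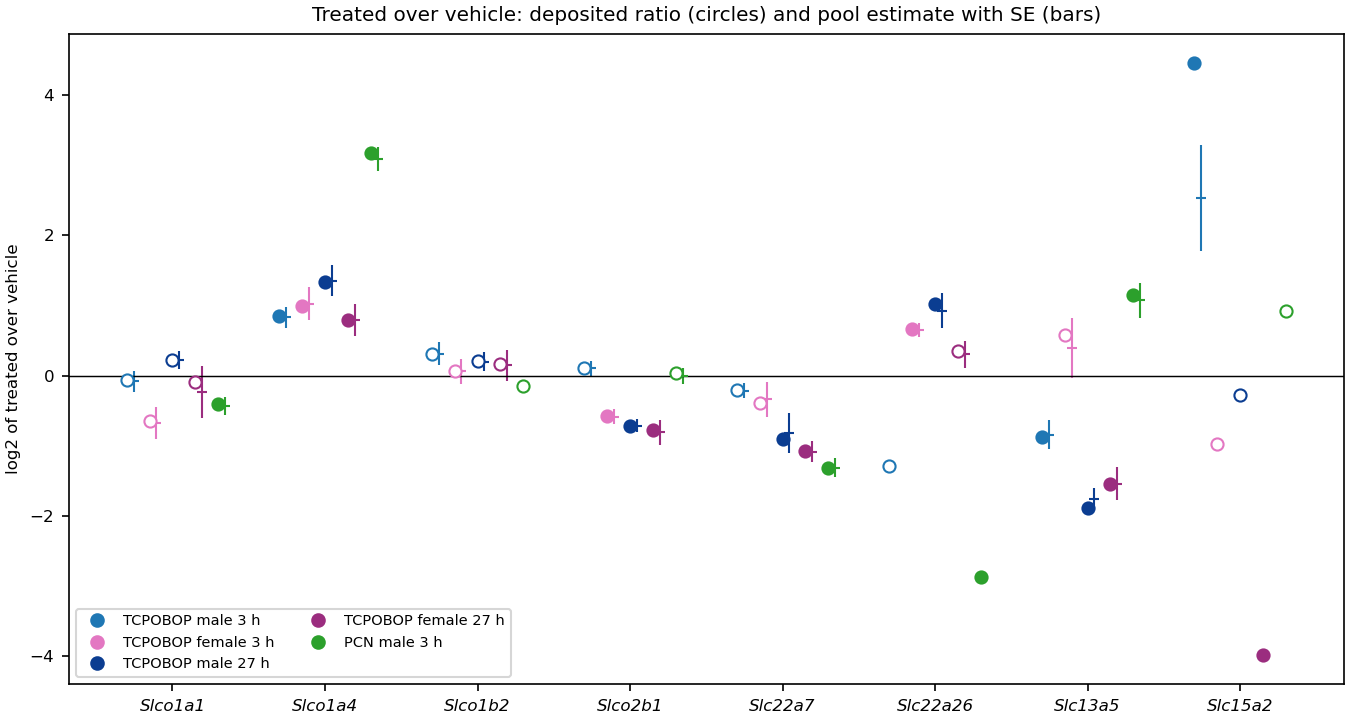
Log2 of treated over vehicle for each transporter in the 5 comparisons. Circles are the authors' deposited ratio, filled where their adjusted p was under 0.05, and bars are the limma estimate from the pools with its SE, absent where a gene was under 1 FPKM in both groups or had no pool values. Slco1a4 is above 0 in all 5, Slc13a5 is below 0 in 3 and above 0 in females at 3 h of TCPOBOP (not called) and after PCN, and the Slc15a2 circles at 4.46 and -3.98 are those of single high pools.

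Counted by the authors' adjusted p under 0.05, 2 members rose and 1 fell in males at 3 h of TCPOBOP, and 2 rose and 1 fell in females at 3 h. At 27 h 2 rose and 3 fell in males, and 1 rose and 4 fell in females. After PCN 2 rose and 3 fell. Over all genes above 0 FPKM in either group the share called in the same table was 1.17% and 2.85% at 3 h in males and females, 11.4% and 8.58% at 27 h, and 13.5% after PCN. The members were chosen with results of these data known, so their 3 or 5 calls of 8 are a description and were not tested against that background. The median log2 ratio of the 8 was 0.02, -0.17, -0.04, -0.43 and -0.06 in that order, with the median of all genes at 1 FPKM or more between -0.02 and 0.03. Members at 1 FPKM or more in either group were 7 of 8 in each TCPOBOP comparison and 6 of 8 after PCN.

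By pools, 6 of 8 members did not overlap between groups in males at 3 h, 5 in females at 3 h, 6 in males at 27 h, 4 in females at 27 h and 4 of 7 after PCN. The same held for 36.0%, 50.0%, 65.9%, 63.3% and 46.5% of genes at 1 FPKM or more. The members' counts include genes under 1 FPKM, which that background leaves out, and were not tested against it. Overlap was judged on FPKM that was not centred, for members and background alike. The limma fit called 0, 1, 3, 3 and 4 members in that order, and 0.703%, 1.66%, 17%, 12.9% and 24.9% of the genes fitted. Each member it called was also called by the authors. At 3 h of TCPOBOP in males, where limma called no member, 3 members had an unadjusted limma p under 0.05 and the authors' table called 3. No member passed for a difference of response between the sexes or times, where 0.0364% (3 h) and 0.0909% (27 h) of genes passed between sexes, 0.309% between times in males and 3.42% between times in females.

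Vehicle livers showed which members differ between sexes without treatment. Slc22a26 was at 0.289 and 1.01 FPKM in male and 23.01 and 22.9 FPKM in female pools at 3 h, and at 1.36 and 1.12 against 23.1 and 20.5 FPKM at 27 h. Slco1a4 was higher in female pools at both times, with means of 10.8 against 4.21 FPKM at 3 h and 39.2 against 7.80 FPKM at 27 h. Slco1a1 was lower in female pools at both times, with means of 21.1 against 47.3 FPKM and 21.7 against 51.5 FPKM. None of these pools overlapped between the sexes. The limma log2 difference of female minus male vehicle was 5.16 ± 0.38 at 3 h and 4.04 ± 0.38 at 27 h for Slc22a26, with limma adjusted p = 1.98e-06 and 2.87e-05. For Slco1a4 it was 1.33 ± 0.27 and 2.33 ± 0.27, with limma adjusted p = 0.00989 and 9.23e-05. For Slco1a1 it was -1.15 ± 0.33 and -1.26 ± 0.33, with limma adjusted p = 0.0569 and 0.00879.

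The share of all genes that passed between the sexes was 6.99% at 3 h and 44.8% at 27 h, so a call at 27 h sets a member little apart. Slco2b1 passed at 27 h only, with 27.5 and 29.5 FPKM in female and 16.8 and 15.4 FPKM in male pools (0.82 ± 0.12, limma adjusted p = 0.000371). Slco1b2, Slc22a7, Slc13a5 and Slc15a2 did not pass at either time. Slc22a26 in TCPOBOP-treated males at 27 h, at 1.79 and 3.06 FPKM, remained below every female pool, the lowest of which was at 20.5 FPKM.

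**Figure D3:**
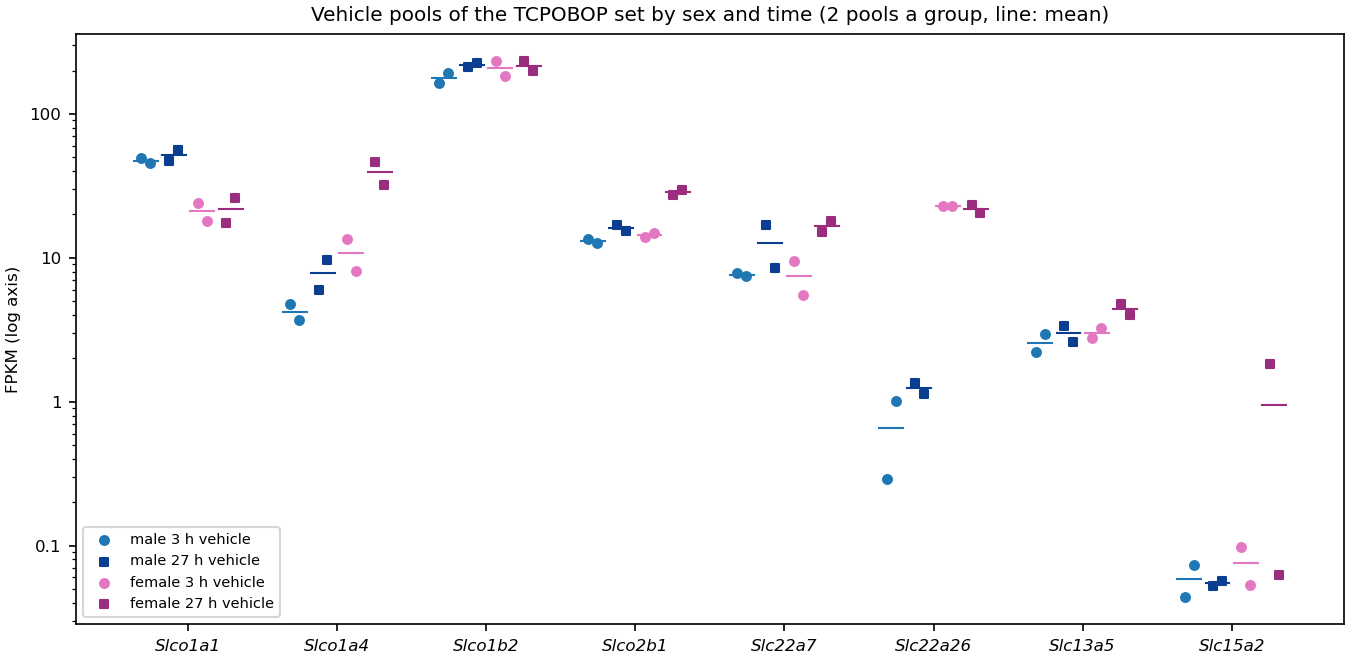
FPKM (log axis) of the 8 transporters in the 8 vehicle pools of the TCPOBOP set, males in blue and females in pink to purple, circles at 3 h and squares at 27 h, with a line at each mean. Slc22a26 and Slco1a4 are higher and Slco1a1 lower in female pools at both times, and 1 of 2 female pools at 27 h holds Slc15a2 at 1.83 FPKM.

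Vehicle levels also moved between 3 h and 27 h, although per the labels livers of both times were taken at the same hour of the day. In female vehicle pools Slco1a4 went from 13.5 and 8.09 FPKM at 3 h to 46.5 and 31.9 FPKM at 27 h (1.76 ± 0.27, limma adjusted p = 0.000187). Slc22a7 went from 9.47 and 5.50 FPKM to 15.1 and 17.9 FPKM (1.06 ± 0.27, limma adjusted p = 0.00527), and Slco2b1 from 14.02 and 14.98 FPKM to 27.5 and 29.5 FPKM (0.85 ± 0.12, limma adjusted p = 0.000124). The pools of these 3 genes did not overlap between the times. Of all genes fitted, 52.3% passed between the 2 female vehicle groups, against 11.3% between the male ones, where no member passed. The female TCPOBOP pools at 27 h were at 7.27 and 7.74 FPKM for Slc22a7, within the range of the female vehicle pools at 3 h. For Slco2b1 they were at 17.9 and 13.9 FPKM, above and below that range. These levels are not centred, and the median gene was higher by 0.18 (log2) in female vehicle at 27 h than at 3 h. Between these female vehicle groups the summed markers went from 48.3 to 85.8 FPKM for Kupffer cells, from 1804 to 1405 FPKM for hepatocytes and from 6.22 to 4.07 FPKM for cholangiocytes, and their part in the result was not tested. Whether time, a library effect or both set the female vehicle groups apart cannot be told apart.

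Over all rows of the Slco, Slc22a, Slc13a and Slc15a families, 50 genes, 16 to 23 reached 1 FPKM in either group of a comparison. Among those rows, members included, by the authors' adjusted p 3 rose and 1 fell in males at 3 h of TCPOBOP, 4 and 1 in females at 3 h, 3 and 3 in males at 27 h, 3 and 4 in females at 27 h, and 3 and 6 after PCN. The authors' adjusted p called 1.83%, 4.51%, 16.3%, 13% and 22.3% of all genes at 1 FPKM or more in these comparisons, in the same order, and the family counts were not tested against them. Slc13a2, a dicarboxylate carrier of the family of Slc13a5, rose in 4 of the 5, with ratios in the authors' deposited table of 2.34 in females at 3 h, 3.92 in males and 4.12 in females at 27 h, and 1.59 after PCN. Its vehicle pools varied widely, at 3.19 and 0.684 FPKM in males at 27 h, where TCPOBOP pools were at 8.59 and 6.04 FPKM. Slc15a4, a histidine and peptide carrier of lysosomes, rose at 3 h of TCPOBOP, with ratios in the authors' deposited table of 1.84 in males and 2.11 in females.

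Of the 8 Slc22a rows at 1 FPKM or more in the PCN comparison 5 fell and 0 rose by the authors' adjusted p. Of all genes at 1 FPKM or more there, 9.41% fell and 12.9% rose, and the difference from these shares was not tested. Slc22a30 went from 61.8, 63.7 and 58.8 FPKM in vehicle to 29.8, 29.2 and 30.1 FPKM after PCN, and Slc22a28 from 4.60, 3.53 and 3.88 FPKM to 1.82, 1.89 and 1.98 FPKM. The groups did not overlap for either, and the ratios in the authors' deposited table were 0.545 and 0.531, with adjusted p = 5.48e-14 and 1.37e-07. Slc22a18 also fell, from 7.22, 8.12 and 5.84 FPKM to 3.99, 4.56 and 5.34 FPKM, with a ratio in the authors' deposited table of 0.732 and adjusted p = 0.0464. After TCPOBOP in females at 27 h Slc22a28 rose (ratio 2.51 in the authors' deposited table) and Slc22a29 fell (ratio 0.497 in the authors' deposited table), from vehicle means of 1.403 and 1.389 FPKM.

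Among other carriers, the bile acid carrier of the ileum and bile ducts Slc10a2 rose at 27 h of TCPOBOP and after PCN, with ratios in the authors' deposited table of 3.47 in males, 5.26 in females and 2.17 after PCN. The sinusoidal bile acid importer Slc10a1 rose in males at 27 h, from 30.2 and 27.8 FPKM to 48.1 and 40.3 FPKM, with a ratio of 1.58 in the authors' deposited table. Its TCPOBOP pools in females at 27 h, at 30.5 and 28.8 FPKM, lay below the vehicle pools, at 41.5 and 44.1 FPKM, and the ratio of 0.722 in the authors' deposited table was not called (adjusted p = 0.187). Slc2a2, the hepatic glucose carrier GLUT2, fell in females at 27 h, from 22.2 and 23.6 FPKM to 6.52 and 8.11 FPKM, with a ratio of 0.333 in the authors' deposited table. The fatty acid carriers Slc27a2 and Slc27a5 were called in none of the comparisons, and their lowest adjusted p values were 0.0704 and 0.123 in the authors' deposited table.

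Over the 8 group means of the TCPOBOP set, the genes with the pattern most like a member were described by Pearson's r of log2(FPKM + 0.1) among 11004 genes. For Slco1a4 they were Ruvbl2 (r = 0.993), Gsap (0.977) and the olfactory and hepatic cytochrome P450 Cyp2g1 (0.977). For Slc22a26 they were the sulfotransferase Sult3a1 (r = 0.979), the carboxylesterase Ces1b (0.978) and Nipal1 (0.978), and for Slco1a1 Sft2d2 (0.993), Prkacb (0.986) and Tbl1x (0.984). For Slco2b1 they were Synrg (r = 0.995), Serhl (0.991) and the hormone-sensitive lipase Lipe (0.987), and for Slc22a7 Ppp2r1b (0.996), Adcy6 (0.993) and Ube2b (0.99). For Slc13a5 they were Apbb3 (r = 0.974), Ik (0.971) and the metallothionein Mt2 (0.969). Slco1b2 and Slc15a2 had weaker likenesses, at most 0.905 (Dusp19) and 0.885 (Col6a3). Group means share pools and depth, and over the 16 single pools only 6 of these 24 genes stayed among the 3 most alike. Those 6 were Gsap, Sult3a1, Ces1b, Tbl1x, Lipe and Dusp19. Ppp2r1b, with the highest r above, went to rank 382 (r = 0.808) over the pools, and Col6a3 to r = 0.126.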

How the data were processed

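Nuclear poly(A) RNA of 22 pools of CD-1 mouse livers was sequenced from directional libraries, per the labels' protocols. TopHat2, HTSeq 0.6.1p1, featureCounts 1.4.6-p5, edgeR and the build mm9 are named in the submitters' processing notes. Whether intronic reads were counted is not given in the sources used here. The deposited table of 24197 genes gives for each comparison the mean FPKM of vehicle and treated groups, computed by the authors. It also gives the authors' ratio and fold of treated over vehicle, and the authors' adjusted p-value. No other column of per-sample values was present (0 unused).

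A call is an adjusted p under 0.05 in the authors' table, with the direction of its ratio. Each deposited mean FPKM was then solved for the whole fragments, depth and gene length that give it. Of 11211 rows tried, 11158 were solved in the TCPOBOP set, with no row of several solutions. In the PCN set 10974 had 1 solution in both groups. In either group 137 had several, and 70 of very high counts were not tried, and a row could be in both of these counts. The largest difference between a rebuilt and a deposited mean was 5.02e-11 FPKM. Only solutions that gave the deposited mean within rounding were kept, so this difference is no separate check of the pool values. Solving for pool values was chosen after seeing the data. Pool values, as log2(FPKM + 0.1) centred on each pool's median, were fitted with limma 3.58.1 in R 4.3.3, for genes whose vehicle or treated mean reached 1 FPKM, with Benjamini-Hochberg adjustment over all genes fitted. Vehicle groups and differences of response were fitted over the 16 pools of the TCPOBOP set together. No count test was run. Fold changes on this scale understate those of low genes. Counting limits of 3 fragments cover counting error only, and p-values measure the spread between pools of several mice.

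The members and lists were chosen with earlier results of these data known. The text names the members, up to 4 other called rows of their families in each comparison by size of log2 ratio, the 3 genes most like each member, and other hepatic carriers, of which 1 is not reported here. TCPOBOP and PCN were not tested against each other, since sets, doses and vehicle pools differ. The FPKM quotients of the PCN set lay 0.17 (log2) below the authors' ratios at the median gene, so folds are given as the authors' ratios.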

Additional observations from a re-analysis of the deposited data

How the results depend on the processing

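No paired analysis was possible because the pool values solved from the group means carry no pool number. With limma on the pools in place of the authors' adjusted p, the members called went from 3 to 0 in males at 3 h of TCPOBOP, from 3 to 1 in females at 3 h, from 5 to 3 in males at 27 h and from 5 to 3 in females at 27 h. Adding 1 FPKM gave the same counts of 0, 1, 3 and 3 in these TCPOBOP comparisons, and leaving pools uncentred gave 0, 2, 3 and 3. After PCN the members called went from 5 to 4 with limma. Of the calls lost, Slc15a2 in females at 27 h and Slc22a26 after PCN were under 1 FPKM and outside the fit. Leaving out 1 pool at a time gave 0 to 2 members in males at 3 h, 0 in each case in females at 3 h, 1 to 4 in males at 27 h, 1 to 4 in females at 27 h and 3 to 4 after PCN. In these fits a lone pool is assumed to vary like the other group. Slc13a5 in males at 27 h, and Slc13a5, Slc22a7 and Slco1a4 after PCN, passed in limma without each pool in turn. Against vehicle of the other time, quotients of mean FPKM with 0.1 added, not centred, were set beside the authors' ratios. In 7 of 32 the sign of the log2 value differed. The 4 that had been called went to -0.029 for Slco1a4 in males at 3 h, -0.92 for Slco1a4 in females at 3 h, 0.13 for Slco2b1 in females at 27 h and 0.0033 for Slc22a7 in females at 27 h. The 3 not called were Slco2b1 in males at 3 h (-0.17), Slco1b2 in females at 3 h (-0.041) and Slc13a5 in females at 3 h (-0.026). Between 3 h and 27 h vehicle the median gene differed by 0.09 (log2) in males and 0.18 in females. The sign of values nearer 0 than that is therefore not settled. Slco1b2 in females at 3 h was already at -0.0026 on this scale against its own vehicle. The time quotients of 2-fold or more in vehicle went from 2 to 1 with 1 FPKM added and to 3 without centring. Of the 24 genes most like a member, 5 stayed over all 10 groups and 6 over the 16 pools. The causes were not tested. With 2 pools a group, single pools decide many of these calls.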
